A study of Mus musculus with 18 samples.

Results

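The collagen IV, laminin, nidogen and perlecan genes of the glomerular basement membrane (GBM) were read in kidney cortex RNA from mice of 5 inbred strains. The 10 genes, chosen by symbol, were Col4a1, Col4a2, Col4a3, Col4a4 and Col4a5 for collagen IV, Lama5, Lamb2 and Lamc1 for laminin, and the linker genes Nid1 and Hspg2. They were carried by 14 of the 46632 probes of the table that holds B6 and NZW. The table that holds BALB/C, DBA1 and 129/svj names its rows by search keys, and 8 of the 14 probes had a match there, to 7 of its 46147 rows, because both Col4a5 probes share a row. Thus Col4a5, Lama5, Lamc1, Nid1 and Hspg2 were read in all 5 strains, and Col4a1, Col4a2, Col4a3, Col4a4 and Lamb2 in B6 and NZW only.

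All 15 mice, 3 per strain, were 2 months old and had been challenged with anti-GBM antibody. B6 and BALB/C are labelled resistant to the challenge, and NZW, DBA1 and 129/svj sensitive to it. In each of BALB/C, DBA1 and 129/svj, mouse 1 had a second array that was averaged with its first, so that the series holds 18 arrays. No unchallenged mouse is among them, so a strain difference present before the challenge and a difference in the response cannot be told apart. In RNA from whole cortex, fewer cells of a type and less RNA per cell cannot be told apart either. The median signal was 81.1 to 89.8 on the 6 arrays of B6 and NZW and 118.5 to 152 on the 12 arrays of the other strains. A probe was counted as detected at a detection p of at most 0.05, which held for 33.8% to 36.4% of the probes on arrays of B6 and NZW and for 30.5% to 34.1% on the others. Strain levels were compared only within a table, since table and strain pair cannot be told apart between tables. A further test sets the strain differences of the tables against each other, under the same limit.

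The GBM is the sheet of matrix between glomerular endothelium and podocytes, and it is the filter and the target of the antibody in this model. Its collagen IV is built of trimers: the alpha-1 and alpha-2 chains form the network of most basement membranes, whereas the alpha-3, alpha-4 and alpha-5 chains assemble into the network of the mature GBM, which podocytes secrete, and their loss causes Alport syndrome. Laminin of the mature GBM is a trimer of the chains encoded by Lama5, Lamb2 and Lamc1, and nidogen and perlecan bind the laminin and collagen layers to each other.

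Collagen IV genes lie in head-to-head pairs, Col4a1 beside Col4a2 on chromosome 8 and Col4a3 beside Col4a4 on chromosome 1. The region of 250 bases before to 50 after a listed gene start was held for 8 of the 10 genes (RefSeq, GRCm38.p6), not for Col4a3 and Lamc1. The region of Col4a4 (chr1:82586800-82587099, minus strand) is shown because Col4a4 was the gene that differed between strains. Those of Col4a1 (chr8:11312777-11313076, minus strand) and Col4a2 (chr8:11312555-11312854, plus strand) are shown because they share 78 bases and because the signals of both genes are compared below mouse by mouse. Capitals mark CCAAT (or ATTGG on the other strand) and the GC box GGGCGG (or CCGCCC).
Col4a4: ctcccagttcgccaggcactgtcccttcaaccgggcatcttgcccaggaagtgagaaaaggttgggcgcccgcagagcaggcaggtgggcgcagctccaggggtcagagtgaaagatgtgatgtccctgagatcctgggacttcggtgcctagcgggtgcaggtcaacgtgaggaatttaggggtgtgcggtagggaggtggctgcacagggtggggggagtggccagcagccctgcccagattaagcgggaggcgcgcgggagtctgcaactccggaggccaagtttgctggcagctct
Col4a1: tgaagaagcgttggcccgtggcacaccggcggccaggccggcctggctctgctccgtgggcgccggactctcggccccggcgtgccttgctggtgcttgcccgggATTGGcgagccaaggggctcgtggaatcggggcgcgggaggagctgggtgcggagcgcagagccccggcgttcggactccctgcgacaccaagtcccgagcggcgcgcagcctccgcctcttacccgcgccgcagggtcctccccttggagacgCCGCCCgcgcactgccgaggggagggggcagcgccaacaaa
Col4a2: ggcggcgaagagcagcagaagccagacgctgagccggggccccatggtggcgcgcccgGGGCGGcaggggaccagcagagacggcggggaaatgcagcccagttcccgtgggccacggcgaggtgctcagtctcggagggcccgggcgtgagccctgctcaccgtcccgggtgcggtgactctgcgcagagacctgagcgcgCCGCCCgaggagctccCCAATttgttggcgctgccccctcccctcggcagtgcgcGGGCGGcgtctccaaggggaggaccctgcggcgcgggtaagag
The Col4a1 region holds 1 CCAAT and 1 GC box, and the Col4a2 region 1 CCAAT and 3 GC boxes. Neither motif is in the Col4a4 window. None of the 3 regions holds TATAAA on either strand. Of all 32851 regions of 300 bases, 37.4% hold CCAAT, 35.7% the GC box and 13.6% TATAAA.

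Between B6 and NZW, Col4a4 was the gene of the group that differed: its probe signal was 1.85-fold lower in B6. No probe sequences were at hand, so strain variants under the Col4a4 and Hspg2 probes could not be looked at. Of the 13 member probes that passed the detection filter, covering all 10 genes, this 1 was called at an adjusted p below 0.05 (7.69%), against 18.8% of all 16756 probes tested. A call at lower signal in B6 was made for 9.61% of all probes. Therefore the share of basement membrane probes that differed was not above that of the array. The member differences ran from -0.89 to 0.19 on the log2 scale, with a median of -0.01, and the median over all tested probes was -0.04. The size of the difference, without its sign, had a median of 0.14 for the member probes and 0.20 for all probes. The third Hspg2 probe, ILMN_1242392, was detected in none of the 6 mice and was not tested.

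**Figure D1:**
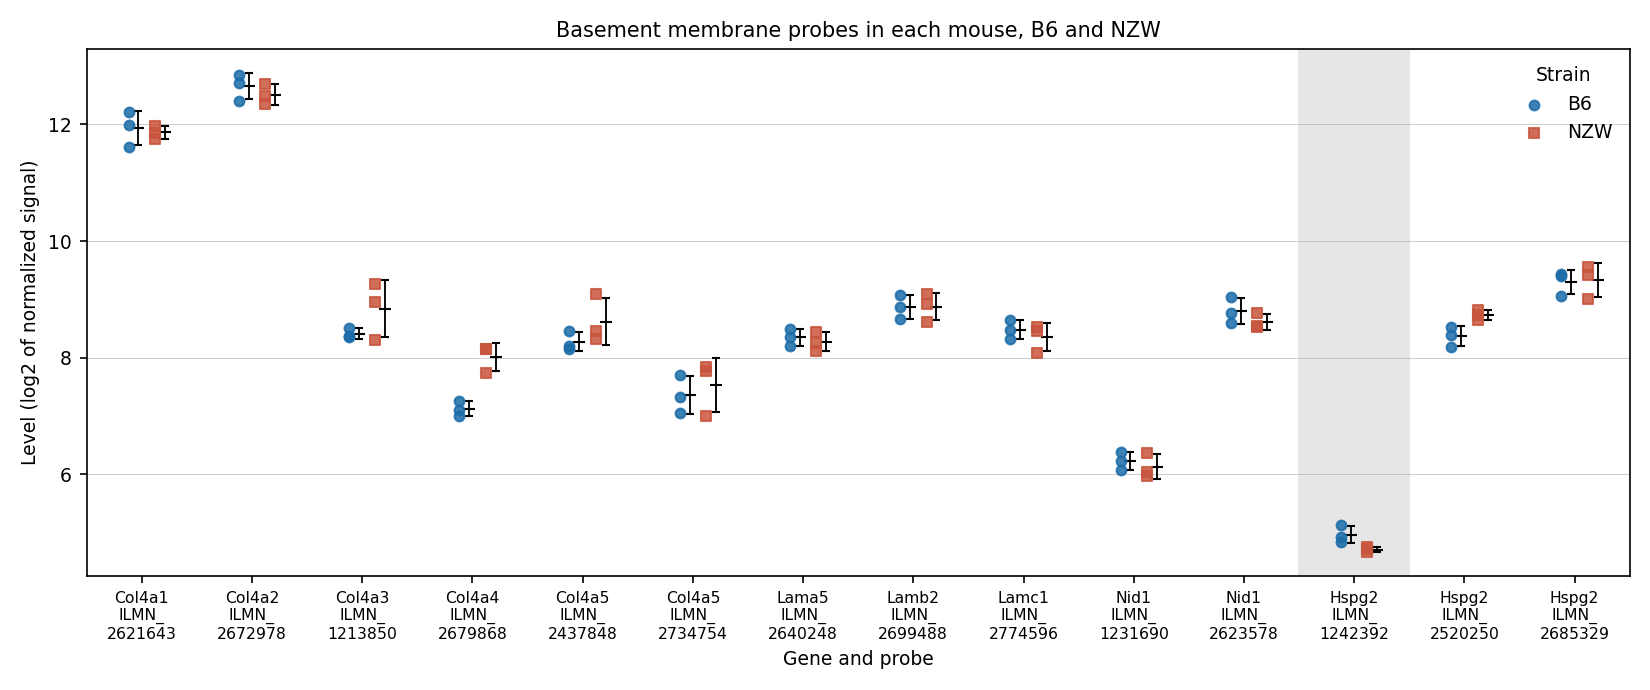
Log2 normalized signal (vertical axis) of the 14 basement membrane probes (horizontal axis) in each of 3 B6 (circles) and 3 NZW mice (squares), with the mean and SD of each strain in black; the shaded probe was not detected in any mouse. Only Col4a4 and Hspg2 ILMN_2520250 have no overlap between the strains among the tested probes, and only Col4a4 was called.

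Col4a4 (probe ILMN_2679868) encodes the alpha-4 chain. Its deposited signals were 380.5, 359 and 245 in NZW mice 1, 2 and 3, and 208, 201 and 199 in the B6 mice. After normalization its log2 levels were 8.14, 8.15 and 7.74 in NZW (mean 8.01 ± 0.24, SD, n = 3) and 7.10, 7.003 and 7.26 in B6 (7.12 ± 0.13). Every NZW mouse was above every B6 mouse, with NZW mouse 3 closest to B6. B6 minus NZW thus came to -0.89 in log2 units (SE 0.14, 95% interval -1.21 to -0.56, limma adjusted p = 0.0029). Each of these signals is a mean over 24 to 44 beads, and the standard error over the beads was 3.11% to 4.40% of the signal, which covers the spread within an array only. All 14 alternatives computed for this probe kept the call, with adjusted p from 0.000677 to 0.0449 and differences from -1.02 to -0.67.

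Col4a3 encodes the alpha-3 chain, the antigen of human anti-GBM disease and the partner of Col4a4 on chromosome 1. Its log2 levels were 8.95, 8.30 and 9.26 in NZW and 8.35, 8.51 and 8.36 in B6. The B6 mice lay close together, whereas the NZW mice ranged widely and NZW mouse 2 was below every B6 mouse. The difference was -0.43 (SE 0.22, 95% interval -0.93 to 0.07, adjusted p = 0.22) and was not called. Without NZW mouse 2 it was -0.70 with an adjusted p of 0.0111, and without NZW mouse 3, the highest of the 6, it was -0.22 with an adjusted p of 0.507.

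Col4a5, on the X chromosome, encodes the alpha-5 chain and has 2 probes. On ILMN_2437848 the levels were 9.08, 8.32 and 8.45 in NZW and 8.21, 8.45 and 8.15 in B6, with a difference of -0.35 (95% interval -0.80 to 0.10, adjusted p = 0.27). On ILMN_2734754 they were 7.77, 6.999 and 7.83 in NZW and 7.32, 7.70 and 7.05 in B6, with a difference of -0.18 (-0.74 to 0.38, adjusted p = 0.66). With each mouse left out, the difference ran from -0.497 to -0.115 on ILMN_2437848 and from -0.447 to -0.027 on ILMN_2734754. The strains overlapped on both probes. NZW mouse 2 was the lowest NZW mouse on both Col4a5 probes and on Col4a3, but not on Col4a4, where NZW mouse 3 was.

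Col4a1 and Col4a2 encode the chains of the widespread network. Col4a1 had log2 levels of 12.21, 11.99 and 11.62 in B6 and 11.75, 11.98 and 11.86 in NZW. Col4a2 had levels of 12.85, 12.71 and 12.41 in B6 and 12.35, 12.70 and 12.48 in NZW. The order of the 6 mice was alike for both genes, from B6 mouse 1 at the top through B6 mouse 2, NZW mouse 2 and NZW mouse 3, and only the lowest pair, B6 mouse 3 and NZW mouse 1, changed places. Neither gene was called: the differences were 0.08 (95% interval -0.29 to 0.44) for Col4a1 and 0.14 (-0.19 to 0.48) for Col4a2, and both turned negative when arrays were scaled by the 75th percentile, to -0.12 and -0.06.

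The laminin chains differed between B6 and NZW by less than the spread between mice. Lama5, the alpha-5 chain that replaces the alpha chain of the immature GBM, had levels of 8.49, 8.35 and 8.21 in B6 and 8.26, 8.11 and 8.44 in NZW, a difference of 0.08 (95% interval -0.22 to 0.37). Lamb2, the beta-2 chain whose loss causes Pierson syndrome, had 8.67, 9.07 and 8.87 in B6 and 8.62, 9.09 and 8.92 in NZW, a difference of -0.01 (-0.36 to 0.35). Lamc1, the gamma-1 chain shared by most laminins, had 8.65, 8.47 and 8.32 in B6 and 8.08, 8.53 and 8.46 in NZW, a difference of 0.12 (-0.22 to 0.46). The strains overlapped for all 3 chains.

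The linker genes gave 4 tested probes. Nid1, which encodes nidogen 1, showed 0.19 (95% interval -0.13 to 0.51) on ILMN_2623578 and 0.10 (-0.22 to 0.42) on the dimmer ILMN_1231690, with overlap on both. Hspg2, which encodes perlecan, the heparan sulfate proteoglycan of basement membranes, has a pair of tested probes, whose difference from each other was not tested. On ILMN_2520250 the levels were 8.65, 8.82 and 8.73 in NZW and 8.39, 8.53 and 8.19 in B6. All NZW mice were above all B6 mice, and the difference of -0.37 (SE 0.12, 95% interval -0.64 to -0.09) had an adjusted p of 0.071. On ILMN_2685329 the levels were 9.002, 9.42 and 9.56 in NZW and 9.40, 9.44 and 9.05 in B6, a difference of -0.03 (-0.42 to 0.36) with overlap. Groups that did not overlap were found for 2 of 13 member probes and for 37.3% of all tested probes. The call of ILMN_2520250 changed with the processing: it passed without background correction (-0.31, adjusted p = 0.0413), with 75th percentile scaling (-0.47, adjusted p = 0.039) and with an intensity trend in the variance (adjusted p = 0.0461).

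In the table of BALB/C, DBA1 and 129/svj, no member probe was called in any comparison. Of the 7 rows, 5 were tested, for Col4a5, Lama5, Lamc1 and Hspg2 (2 rows), while the Nid1 row 106040100 and the Hspg2 row 105220427 were detected in none of the 9 mice. For BALB/C against DBA1 and 129/svj averaged, limma called 0 of 5, against 5.99% of all 15818 probes, 0 of 5 had no overlap between BALB/C and the sensitive mice, against 9.24% of all probes, and 0 of 5 had an unadjusted p below 0.05, by limma (18.8% of all probes) or by the methods' t-test. Between BALB/C and DBA1 it called 0 of 5 against 5.75%, with 1 below 0.05 unadjusted (Lama5, 18.3% of all probes), and 1 by the methods' t-test (Lamc1, unadjusted p = 0.0189). Between BALB/C and 129/svj it called 0 of 5 against 4.82%, with 0 unadjusted by limma (15.2% of all probes) or the methods' t-test. Between DBA1 and 129/svj it called 0 of 5 against 4.48%, with 1 unadjusted by limma (13.8% of all probes) and 0 by the methods' t-test. With 5 probes tested, shares as low as those of the array would give fewer than 1 call. The comparisons share strains, so their values are not independent.

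**Figure D2:**
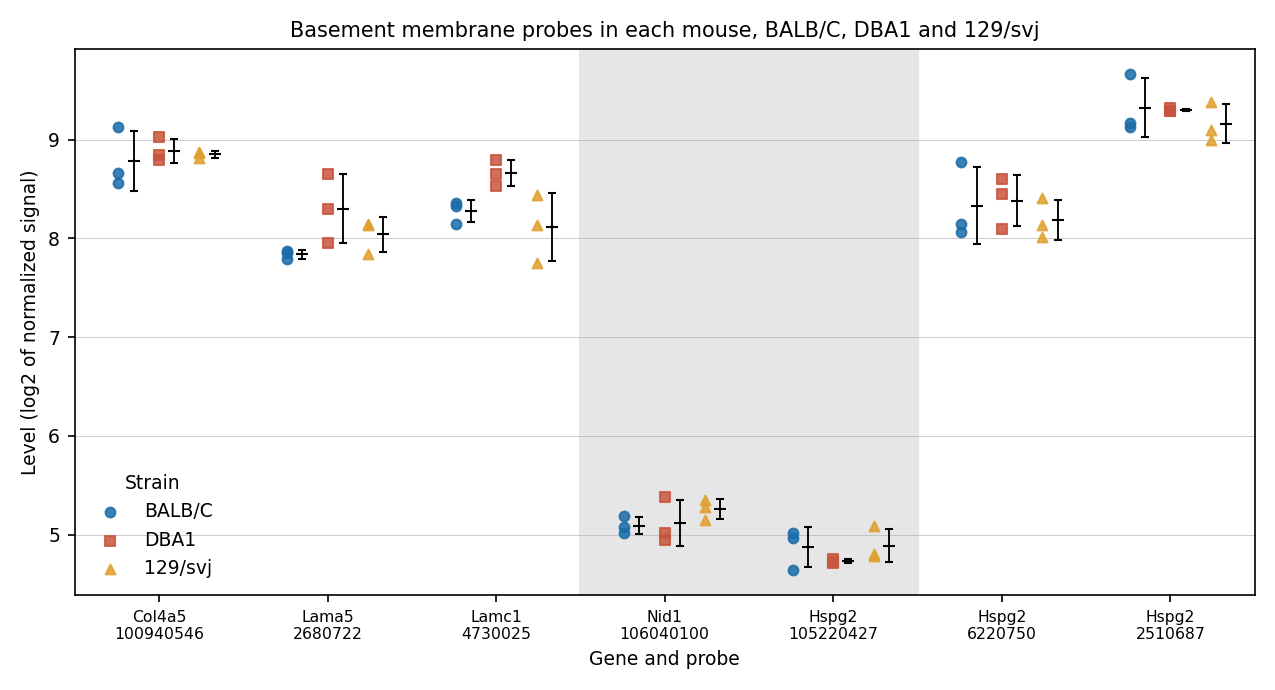
Log2 normalized signal (vertical axis) of the 7 rows of basement membrane genes (horizontal axis) in each of 3 BALB/C (circles), DBA1 (squares) and 129/svj mice (triangles), with the mean and SD of each strain in black; shaded rows were not detected in any mouse. Lama5 in BALB/C lies at 7.79 to 7.87, below every DBA1 mouse, and Lamc1 in DBA1 lies at 8.53 to 8.80, above every mouse of the other strains.

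Lama5 (row 2680722) had log2 levels of 7.79, 7.87 and 7.85 in BALB/C, 8.30, 7.95 and 8.66 in DBA1, and 8.15, 7.84 and 8.13 in 129/svj. BALB/C was below every DBA1 mouse and overlapped with 129/svj mouse 2. The difference of BALB/C from DBA1 was -0.46 (SE 0.18, 95% interval -0.87 to -0.05, unadjusted p = 0.0306, adjusted p = 0.21; -0.29 without DBA1 mouse 3), and from 129/svj -0.20 (-0.61 to 0.21). Against the mean of both it was -0.33 (-0.69 to 0.02, adjusted p = 0.30).

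Lamc1 (row 4730025) had levels of 8.14, 8.33 and 8.35 in BALB/C, 8.53, 8.66 and 8.80 in DBA1, and 8.14, 7.75 and 8.44 in 129/svj. Every DBA1 mouse was above every mouse of both other strains. DBA1 exceeded 129/svj by 0.55 (SE 0.18, 95% interval 0.15 to 0.96, unadjusted p = 0.0127, adjusted p = 0.16), and without 129/svj mouse 3, the highest of its strain, the difference was 0.72 with an adjusted p of 0.048. Without 129/svj mouse 2, the lowest of its strain, it was 0.37 with an adjusted p of 0.436. BALB/C differed from DBA1 by -0.38 (-0.79 to 0.02, adjusted p = 0.30). Groups without overlap were found for 2 of 5 member probes between BALB/C and DBA1, for 25.5% of all probes, and for 1 of 5 between DBA1 and 129/svj, for 17% of all probes.

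Col4a5 (row 100940546) had levels of 8.56, 8.66 and 9.13 in BALB/C, 8.85, 8.79 and 9.02 in DBA1, and 8.87, 8.86 and 8.81 in 129/svj. The means of the 3 strains, 8.78, 8.89 and 8.85, lay closer to each other than the BALB/C mice did. The pairwise differences were between -0.10 and 0.04, and their 95% intervals, of equal width, reached from -0.47 to 0.41. Hspg2 had strain means of 8.33, 8.38 and 8.19 on row 6220750 and 9.32, 9.30 and 9.16 on row 2510687 in BALB/C, DBA1 and 129/svj, in that order. BALB/C mouse 3 was the highest of the 9 mice on Col4a5 and on both Hspg2 rows. The Hspg2 strains overlapped on both rows, and the pairwise differences ran from -0.05 to 0.19.

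**Figure D3:**
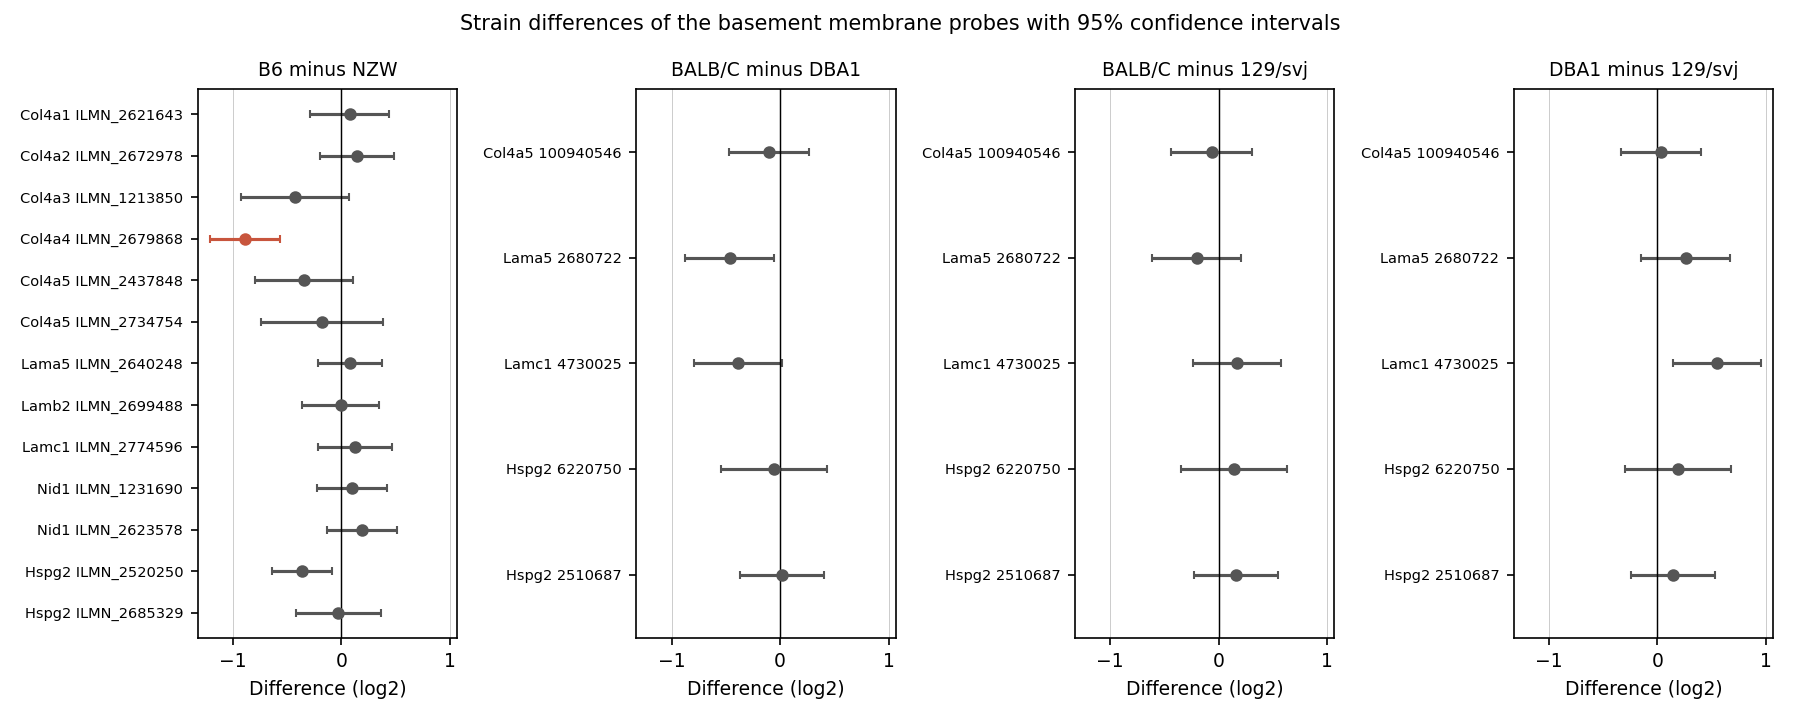
Difference between strains on the log2 scale (horizontal axis) for each tested basement membrane probe (vertical axis) in 4 comparisons; points are limma estimates, bars 95% confidence intervals, and red marks an adjusted p below 0.05. Col4a4 between B6 and NZW, at -0.89, is the only red point.

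Whether the strain difference was the same in both tables was tested over 6896 matched probes, as the difference B6 minus NZW less the difference of BALB/C from the mean of DBA1 and 129/svj. The 5 member probes in it were those of Lama5, Lamc1, Nid1 (ILMN_1231690) and Hspg2 (2 probes), without Col4a5, and Nid1 entered through B6 and NZW alone, since its row of the second table was not detected. By limma 0 of the 5 were called, against 10.3% of all probes, and 0 had an unadjusted p below 0.05, against 22.1%. The largest was Hspg2 ILMN_2520250 at -0.48 (95% interval -1.03 to 0.06, adjusted p = 0.30), followed by Lama5 at 0.33 (-0.13 to 0.80, adjusted p = 0.43). With each mouse left out, this Hspg2 value ran from -0.622 to -0.248 and that of Lama5 from 0.253 to 0.417, so their sizes overlap. Col4a4 has no match in the second table and was not part of this test.

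Of 19 tested genes of other basement membrane components, 4 were higher in B6 than in NZW, 1 was lower and 14 were not called. Their median was -0.13 (all probes -0.04, with 18.8% called). Leaving out 1 mouse gave 2 to 5 calls, with 2 without NZW mouse 1 and 3 without NZW mouse 3 or B6 mouse 2, and over all alternatives the count ran from 0 to 10. Higher in B6 were Fbln2 (1.65, detected in 2 of 3 NZW mice), Smoc2 (1.04) and Fbln1 (0.68), which encode matrix glycoproteins of the fibulin and SPARC-related families. Sparc itself, which binds collagen IV, was not detected in any NZW mouse and was at least 1.18-fold higher in B6. Sparc and Fbln2 passed the detection filter only with B6 mice, so their calls are not independent of the filter. Lamb3, a chain of epithelial laminin-332, was 2.59-fold lower in B6, with levels of 6.47, 6.72 and 5.96 against 7.57, 7.29 and 8.40, and no overlap. Col4a6, the neighbour of Col4a5, was at -0.36 (95% interval -0.93 to 0.22) and Col18a1, the brightest of the list, at 0.01 (-0.28 to 0.30). Lama1, Lamb1, Fras1, Frem1, Pxdn, Hmcn1 and Egfl6 were not detected in enough mice.

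Genes that modify, bind or regulate the matrix were counted in the same way, beside the 18.8% of all probes called between B6 and NZW. Of the enzymes of collagen folding, crosslinking and secretion, 4 of 19 were higher in B6 and 0 lower (median 0.08). Plod2, a lysyl hydroxylase of collagen that was detected in 2 of 3 NZW mice, was 1.64 higher on the log2 scale, and Loxl1, P4ha2 and Colgalt1 were 0.78, 0.69 and 0.55 higher. Of the matrix receptors, 2 of 20 were higher and 1 lower (median -0.03). Ddr1, a receptor tyrosine kinase for collagen, had levels of 10.68, 10.81 and 10.83 in B6 and 9.18, 9.27 and 9.13 in NZW, a difference of 1.58 (adjusted p = 1.35e-05). Itgb8 was called higher, with levels of 5.74, 5.65 and 5.93 in B6 and 5.36, 4.795 and 4.95 in NZW, where it was detected in 1 of 3 mice. Itgav, the integrin alpha chain that pairs with it, was lower (log2 difference -0.97). Plod2 and Itgb8 passed the detection filter only with B6 mice, where they were higher, so their calls and counts are not independent of the filter.

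Matrix proteases and inhibitors had 3 of 21 higher in B6 and 1 lower (median 0.14), beside 18.8% of all probes called: Timp1 at 1.86, Mmp14 at 0.73, Adamts1 at 0.59 (detected in 2 of 3 NZW mice) and Reck at -0.58. Leaving out 1 mouse gave 0 to 4 calls here, with 0 without NZW mouse 1 and 2 without NZW mouse 3 or any B6 mouse. Adamts1 passed the detection filter only with B6 mice, so its call is not independent of the filter. Matrix gene regulators had 3 of 13 higher and 1 lower (median 0.16). Ctgf, the connective tissue growth factor, had log2 levels of 10.88, 11.02 and 10.73 in B6 and 8.98, 8.996 and 8.62 in NZW, a difference of 2.01 (adjusted p = 1.92e-05). Pdgfb was at 0.82, Ltbp1 at -0.74 and Smad2 at 0.50. Of the interstitial matrix genes, 3 of 12 were higher and 0 lower (median 0.47), namely Col1a1 (1.49), Acta2 (0.95) and Eln (0.74). With each mouse left out, the Col1a1 difference ran from 0.96 to 2.01. Col1a1 had log2 levels of 7.95, 9.05 and 6.94 in B6 and 6.57, 6.61 and 6.28 in NZW. B6 mouse 3 was the lowest B6 mouse, also in the summed normalized signal of the 12 genes (8507, against 12761 and 14621 in B6 mice 1 and 2 and 7971 to 8967 in NZW). Without it 6 genes were called, and without any other mouse 1 to 2. Across these 6 lists Plod2, Colgalt1, Ddr1, Itgav, Ctgf, Pdgfb and Ltbp1 kept their calls under all alternatives computed for them, and the other genes named lost theirs under 1 to 10.

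**Figure D4:**
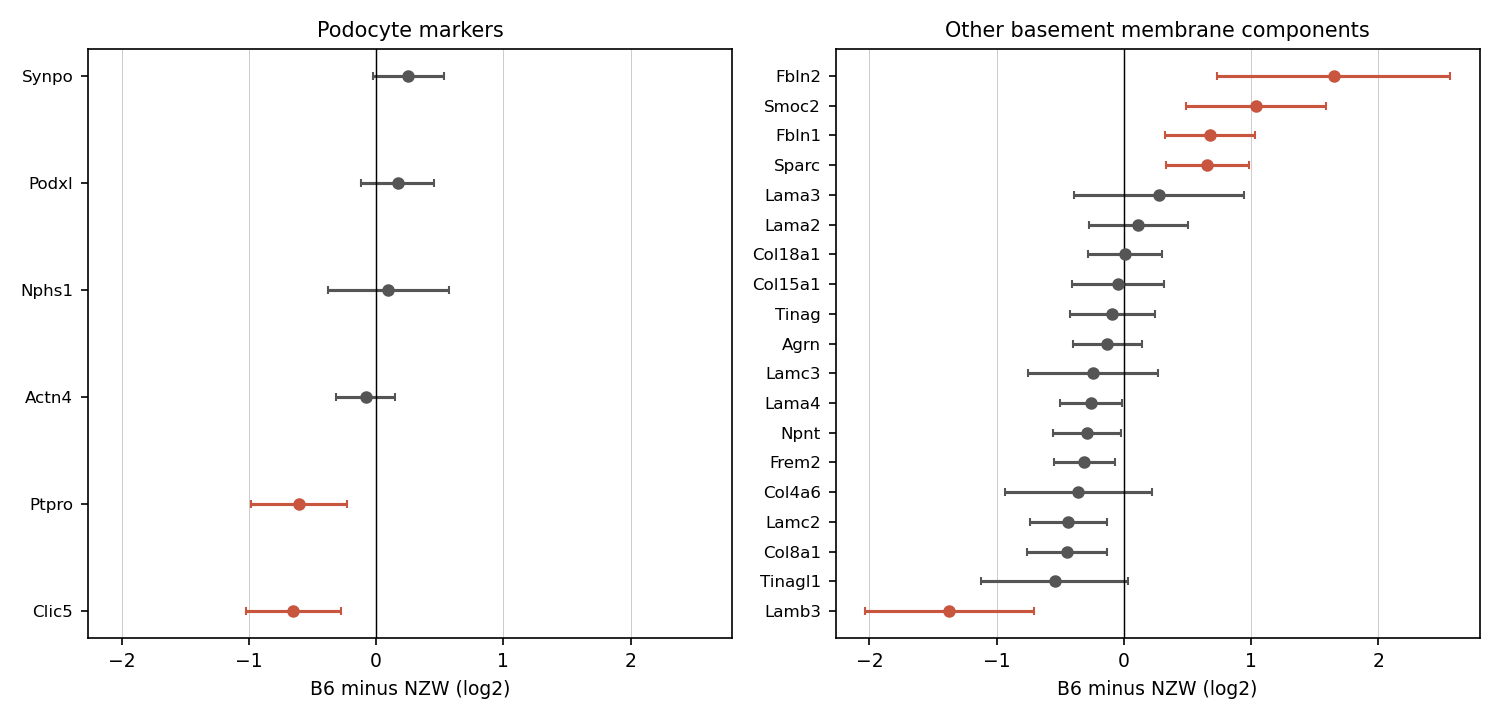
Difference B6 minus NZW on the log2 scale (horizontal axis) for the tested podocyte markers and the other basement membrane components (vertical axis), 1 probe per gene; points are limma estimates, bars 95% confidence intervals, and red marks an adjusted p below 0.05. Ptpro and Clic5 are the red podocyte markers, at -0.60 and -0.65, while Podxl, Synpo and Nphs1 lie above 0.

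Of the 6 podocyte markers tested, Ptpro (-0.60, adjusted p = 0.0358) and Clic5 (-0.65, adjusted p = 0.0255) were lower in B6, 0 were higher and 4 were not called, with a median of 0.01, beside 9.61% of all probes called lower in B6 and 18.8% called in either direction. Ptpro, a receptor tyrosine phosphatase of podocytes, had log2 levels of 6.43, 7.07 and 6.86 in B6 and 7.36, 7.4995 and 7.32 in NZW, without overlap. Nphs1 (nephrin) was at 0.10 (95% interval -0.38 to 0.57), Synpo at 0.25 (-0.03 to 0.53) and Podxl, the list's brightest probe, at 0.17 (-0.12 to 0.46). The summed normalized signal of the 6 genes was 8504, 9270 and 8904 in the B6 mice and 7547, 8795 and 7953 in the NZW mice, which overlap. Bright probes weigh most in this sum: the mean B6 levels were 11.90 for Podxl and 11.76 for Synpo, against 6.79 for Ptpro and 6.04 for Clic5. Cd2ap, Kirrel, Tcf21, Plce1, Magi2 and Dach1 had probes but were not detected in enough mice. The part of the podocyte markers in the Col4a4 difference was not tested. Both calls were lost under 7 alternatives each, among them Ptpro without any NZW mouse or B6 mouse 1 or 3, and Clic5 without NZW mouse 1 or 3 or B6 mouse 1 or 2.

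Markers of the other cells of the cortex are given by their counts, beside the 18.8% of all probes called between B6 and NZW. Of the glomerular endothelial markers 3 of 12 were higher in B6 and 0 lower (median 0.12), led by Ehd3 at 1.85 (adjusted p = 6.08e-06), with Sox17 at 0.54 and Eng at 0.35, and the list's brightest probe, Emcn, at -0.11, and 1 was called without NZW mouse 3 or B6 mouse 1 or 2. Mesangial and pericyte markers had 0 of 8 called by limma. Of the proximal tubule markers 4 of 12 were lower (median -0.24), namely Slc5a12 (-1.35), Fbp1 (-0.63), Cubn (-0.60) and Miox (-0.40), and of the distal nephron markers Slc12a3 was higher (1.46) and Pvalb lower (-2.38) among 12. Tubule injury markers had 4 of 9 higher and 3 lower (median 0.30), with Havcr1 at -2.77, Timp1 at 1.86, Lcn2 at 1.80 and Krt18 at -0.71. B6 mouse 3 stood apart: the summed normalized signal of the 9 genes was 12380 in it, 21634 and 20680 in B6 mice 1 and 2, and 11735 to 13267 in NZW. Bright probes weigh most in this sum, which adds genes called in opposite directions. Spp1, the list's brightest probe, was called higher in B6 (0.69), with levels of 13.28, 13.24 and 12.58 against 12.44, 12.30 and 12.29 in NZW. Havcr1 had log2 levels of 7.92, 7.54 and 5.40 in B6 mice 1, 2 and 3 and 10.27, 9.05 and 9.85 in NZW. The 7 calls became 6 without B6 mouse 3, 4 without B6 mouse 2, 3 without NZW mouse 2, and 2 without NZW mouse 1, NZW mouse 3 or B6 mouse 1. C1qb was the called gene of 11 macrophage markers, at 1.02 (2 were called without B6 mouse 1 or 2), while 0 of 6 lymphocyte and 0 of 8 neutrophil markers were called, although 4 neutrophil markers were called without B6 mouse 1. The medians of these lists were 0.46, -0.14 and 0.22 in that order, beside -0.04 for all probes. Of the marker genes named here, Spp1 aside, Ehd3, Slc5a12, Fbp1, Slc12a3, Pvalb and C1qb kept their calls under all alternatives computed for them, while Cubn and Krt18 lost theirs under 1, Sox17 under 4, Havcr1 under 5, Miox under 6, Eng and Timp1 under 7 and Lcn2 under 8.

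In BALB/C against the mean of DBA1 and 129/svj the related lists had fewer genes tested. Of 8 other basement membrane components 1 was higher and 2 were lower (median -0.48, all probes 0.01, with 5.99% called), and 1 was called without BALB/C mouse 1, BALB/C mouse 3 or 129/svj mouse 1. Sparc was detected in all 3 BALB/C mice and in none of DBA1 and 129/svj, and was at least 1.77-fold higher in BALB/C. Lama3 and Frem2 were not detected in BALB/C and were at least 1.70-fold and 1.53-fold lower there. Both were called against DBA1 (at least 1.88-fold and 1.76-fold lower) and not against 129/svj. These 3 genes passed the filter only through mice of the side where they were higher, so their count is not independent of the filter and is read as a description. Between DBA1 and 129/svj 0 of these 8 were called by limma. Of the matrix receptors 1 of 14 was higher, Itgb8, and 3 were lower, and 2 of these 4 calls were made without BALB/C mouse 2, BALB/C mouse 3 or 129/svj mouse 1. Itgb8 was detected in all 3 BALB/C mice, 1 DBA1 mouse and no 129/svj mouse, and was at least 1.49-fold higher in BALB/C than in 129/svj. It passed the filter only with BALB/C mice, where it was higher, so its call and its place in the count are not independent of the filter. Sdc4, a heparan sulfate syndecan, had levels of 9.91, 9.73 and 9.65 in BALB/C, 11.04, 11.18 and 11.53 in DBA1, and 10.66, 10.89 and 10.67 in 129/svj, a difference of -1.23 (adjusted p = 0.000466). Sdc2 was at -0.995. Itga8, a mesangial integrin, was detected in no BALB/C mouse, 3 DBA1 mice and 1 129/svj mouse, and was called against DBA1 (at least 1.30-fold lower) but not against 129/svj; it too passed the filter through the side where it was higher.

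The other lists in that comparison stand beside the same 5.99% of all probes called. P4hb was lower (-0.43) among 11 collagen folding genes, and Ctgf was lower (-1.17, adjusted p = 0.0415) among 3 matrix gene regulators. With the mouse number as a replicate block both calls were lost (limma adjusted p = 0.0831 for P4hb and 0.0645 for Ctgf). Ctgf had log2 levels of 10.23, 9.59 and 9.41 in BALB/C, 11.01, 11.65 and 11.70 in DBA1, and 10.26, 9.81 and 11.04 in 129/svj. BALB/C mouse 1 overlapped with 129/svj, and Ctgf was called against DBA1 but not against 129/svj. By limma 0 of 9 matrix proteases and inhibitors, 0 of 7 interstitial matrix genes, 0 of 3 podocyte markers and 0 of 6 glomerular endothelial markers were called, with 1 interstitial matrix gene called without 129/svj mouse 2. Their medians were -0.26, -0.52, -0.09 and 0.24 in that order, beside 0.01 for all probes. The 3 podocyte markers summed to 1961 to 2093 in BALB/C, 1709 to 2397 in DBA1 and 2022 to 2418 in 129/svj, and Synpo had the brightest probe. Of 4 mesangial and pericyte markers, Rgs5 was called higher and Ren1 (-0.9998) and Itga8 lower, Itga8 with the limit of the filter given above. The Rgs5 level averaged 7.86 in BALB/C and 7.92 in DBA1, and Rgs5 was not detected in 129/svj, so that BALB/C was at least 4.58-fold and DBA1 at least 4.76-fold higher. Of 9 proximal tubule markers Slc5a2 was called higher (0.91) and Slc22a6 lower (-1.32), with 0 called without BALB/C mouse 1 or 2 and 1 without BALB/C mouse 3 or 129/svj mouse 3. The Slc5a2 level averaged 11.43 in BALB/C, 11.13 in DBA1 and 9.90 in 129/svj, with overlap between BALB/C and DBA1. Of 6 macrophage markers (median -0.63) Cd14 was lower (-1.95), with overlap between BALB/C and 129/svj. Of 6 distal nephron, 3 tubule injury, 2 lymphocyte and 1 neutrophil marker 0 were called by limma, with 1 distal nephron marker called without 129/svj mouse 2 or 3 and 1 tubule injury marker without DBA1 mouse 2 or 3. The medians of these lists were 0.64, -0.98, -0.11 and 0.14 in that order. Against DBA1 alone, where 5.75% of all probes were called, 2 of the 6 distal nephron markers were higher in BALB/C, Pvalb (3.25, adjusted p = 0.0308) and Calb1 (1.25, adjusted p = 0.0449), which were named after their values were seen. Of the genes named in this comparison, Sdc2, Sdc4 and Sparc kept their calls under all alternatives computed for them, Sparc with the limit of the filter given above. Of up to 20 alternatives, the call was lost under 1 for Ren1, 2 for Rgs5, 4 for Slc22a6, 5 for Itgb8, 6 for Itga8, 7 for Lama3, Frem2 and Slc5a2, 8 for Ctgf, 9 for Cd14 and 12 for P4hb. The call of Ctgf was lost without BALB/C mouse 2 or 3, DBA1 mouse 2 or 3 or 129/svj mouse 1, and that of Cd14 without any BALB/C mouse, DBA1 mouse 2 or 3 or 129/svj mouse 1.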

How the data were processed

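Kidney cortex RNA of 15 mice was measured on 18 Illumina mouse BeadChip arrays. The authors deposited, in 2 tables, a probe intensity without normalization, its bead standard error and bead number, and a detection p-value against negative controls. The scanner settings and genome build are not given in the sources used here. All per-sample columns belong to samples of the study. Rows that share a probe ID (22 in the table of B6 and NZW) were averaged by probe. Probes were matched between tables by search key, and symbols are those of the array design.

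From the deposited intensity and p-value, normexp background correction (limma, offset 16) was applied, and values were quantile normalized within each table and taken to log2. Arrays of mouse 1 were averaged. Probes detected (detection p at most 0.05) in 3 or more mice of a table were tested with lmFit and eBayes (limma 3.58.1, R 4.3.3), 1 coefficient per strain, with Benjamini-Hochberg adjustment over all probes and an adjusted p below 0.05 as the call. The difference between tables used 6896 matched pairs normalized together. The study's methods name Student's t-test for its data in general and no test for the arrays in particular. A level is the log2 of a normalized signal and carries no order between probes. A summed normalized signal adds probes before the log2 is taken, so bright probes weigh most in it. For a gene not detected in any mouse of a strain, "at least" sets the brighter mean against, in each mouse of the dimmer strain, the higher of the lowest signal among detected probes and its own. The number of arrays limits the precision. Deviations of same-numbered mice from their strain means correlated at -0.26 to 0.39 over the strain pairs of a table, and only for DBA1 and 129/svj were all 3 correlations above 0.1 (0.105 to 0.387). Between mice of different numbers the correlations reached 0.40, and no label pairs the mice. Whether mice of a strain shared a litter is not stated.

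Members and gene lists were chosen with earlier results of these data known. The lists were other basement membrane components; collagen folding, crosslinking and secretion; matrix receptors; matrix proteases and inhibitors; matrix gene regulators; interstitial matrix; and markers of podocytes, glomerular endothelium, mesangium and pericytes, proximal tubule, distal nephron, tubule injury, macrophages, lymphocytes and neutrophils. Each used 1 probe per gene, the brightest tested; 2 listed genes are not reported here and are in no list count. Every member probe is accounted for, and up to 4 genes of a list with the largest called difference, or the gene of its brightest probe, are named. Undetected genes aside, genes outside this rule (Col4a6, Nphs1, Synpo, Aqp2, and Sparc in B6 and NZW) were named after their values were seen. Promoter sequences are RefSeq's. The procedure was run on simulated data with independent normal noise in each mouse. That setting has no outlying mice and no mice that vary together, so no result here rests on it. Tables were read with Python 3.11.15 and pandas 2.3.3. Alternatives covered background correction, scaling, joint normalization, the detection filter, the repeat arrays, the variance model, the methods' t-test, the mouse number as a replicate block and each mouse left out.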

Additional observations from a re-analysis of the deposited data

Results flagged for a closer look

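Of 61 genes of the related lists with a match between the tables, 12 differed in their strain difference between them, against 10.3% of all probes, by the limma test of B6 minus NZW less BALB/C minus the mean of the sensitive strains, with both tables normalized together. Among them are 21 genes named for a called difference in a table that this test uses again, which include 11 of the 12, so their values are given as a description. Each table holds its own strains, so table and strain pair cannot be told apart in this test.

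Ctgf, the connective tissue growth factor, differed by 3.11 on the log2 scale (95% interval 2.27 to 3.95, adjusted p = 6.51e-05). Its own differences were 2.01 in B6 minus NZW and -1.17 in BALB/C minus the mean, and the second call was lost under 8 of 20 alternatives, with overlap between BALB/C and 129/svj. The syndecans Sdc4 (1.25, adjusted p = 0.000446) and Sdc2 (1.14, adjusted p = 0.000523), the renin gene Ren1 (1.31, adjusted p = 0.000856) and the protease inhibitor gene Timp1 (2.72, adjusted p = 0.0138) also had the higher value in B6 minus NZW. The tubule genes Slc5a12 (-2.38, adjusted p = 0.0016), Pvalb (-4.50, adjusted p = 0.00257) and Fbp1 (-0.97, adjusted p = 0.00583) had the lower one. These 8 kept the call when any 1 of the 15 mice was left out.

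The call outside the 11 was that of the distal nephron marker Aqp2, at -1.42 (limma adjusted p = 0.0338), named after its value was seen. The other 3 calls among the 11 did not hold throughout. P4hb, at 0.53 (adjusted p = 0.0354), lost its call with any of 10 mice left out, and Cd14, at 2.15 (adjusted p = 0.0479), with any of 11. Sparc, at -0.82 (adjusted p = 0.0236), lost it without NZW mouse 1, B6 mouse 1, B6 mouse 3 or BALB/C mouse 2, and as Sparc was not detected in NZW, DBA1 or 129/svj this fitted value is no bound.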

How the results depend on the processing

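Col4a4 kept its direction and its call under all 14 alternatives that could be computed for it, the mouse number as a replicate block included. The joint normalization and fit covers matched probes only, so Col4a4 is not in it and its count of called member probes in B6 minus NZW was 0. That count was 2 without background correction, with 75th percentile scaling and with an intensity trend (Hspg2 ILMN_2520250 added), 2 by the methods' t-test, unadjusted, and 1 to 2 with each mouse left out, the second being Col4a3 without NZW mouse 2. Of the 5 member probes in the other table the methods' t-test, unadjusted, called 1 (Lamc1, BALB/C minus DBA1), and leaving out a mouse gave 0 to 1 in DBA1 minus 129/svj (Lamc1 without 129/svj mouse 3).

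Of 643 member values under alternatives 32 changed sign, all of values not called, and the causes were not tested. With 75th percentile scaling they were Col4a1 (-0.117), Col4a2 (-0.0556) and Lama5 (-0.0172) in B6 minus NZW; this scaling moved the median of all probes from -0.04 to -0.13 and the share of calls higher in B6 from 49.0% to 37.3%. Lama5 was at -0.00494 in the joint fit. The first arrays only gave Hspg2 6220750 0.0169 and 2510687 -0.0122 in BALB/C minus DBA1 and Col4a5 -0.0106 in DBA1 minus 129/svj, and the repeat arrays for mouse 1 gave Hspg2 6220750 -0.0286 against the mean. Leaving out single mice changed the sign of the values whose ranges follow. In B6 minus NZW, Col4a1 ran from -0.0593 to 0.235, Lama5 from -0.00209 to 0.164, Lamb2 from -0.137 to 0.0994, Lamc1 from -0.0160 to 0.208 and Hspg2 ILMN_2685329 from -0.192 to 0.0932. Col4a5 ran from -0.258 to 0.0283 in BALB/C against the mean, -0.276 to 0.0103 against DBA1, -0.240 to 0.0462 against 129/svj and -0.0330 to 0.0847 in DBA1 minus 129/svj. Hspg2 6220750 ran from -0.180 to 0.177 against the mean, -0.277 to 0.0796 against DBA1 and -0.0827 to 0.274 against 129/svj, and Hspg2 2510687 from -0.0811 to 0.188, -0.151 to 0.118 and -0.0110 to 0.270 in the same order. Lamc1 ran from -0.0121 to 0.331 in BALB/C minus 129/svj, and Hspg2 ILMN_2685329 from -0.300 to 0.0367 in the difference between the tables.

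Of all probes, B6 minus NZW called 3157, and 1851 by the methods' t-test after Benjamini-Hochberg, 4769 unadjusted, 678 in the joint fit, 2621 with the replicate block and 2082 to 2717 with each mouse left out (2082 without B6 mouse 2). BALB/C against the mean called 948, with 576 (detected in every mouse), 294 and 2187 (the methods' t-test after Benjamini-Hochberg and unadjusted) and 503 to 1078 with each mouse left out (503, 568 and 612 without BALB/C mouse 2, 1 and 3). BALB/C minus DBA1 called 909, with 587, 399, 2728 and 495 to 896 in the same order (495 and 552 without BALB/C mouse 2 and 1, 583 without DBA1 mouse 2), BALB/C minus 129/svj 763, with 466, 318, 2235 and 484 (without BALB/C mouse 2) to 651, and DBA1 minus 129/svj 709, with 368, 218, 1785 and 476 to 772. The difference between the tables gave 508 to 834. The replicate block changed no member call. It ended the calls of Eng and Miox in B6 minus NZW (adjusted p = 0.102 and 0.0699) and of P4hb and Ctgf in BALB/C against the mean (0.0831 and 0.0645). Same-numbered mice of DBA1 and 129/svj correlated at 0.19, 0.10 and 0.39, and the block gave 678 calls between these strains. DBA1 mouse 1 correlated more with 129/svj mouse 2 (0.34) than with mouse 1 (0.19). BALB/C mouse 1 and DBA1 mouse 3, of different numbers, reached 0.40. No label pairs mice of different strains, so same-numbered mice are known to share only a number. Of the related lists in B6 minus NZW, other basement membrane components had 0 calls by the methods' t-test after Benjamini-Hochberg, 2 in the joint fit and 10 by the unadjusted t-test.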
